A study of Brassica napus with 9 samples.

Results

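Pods of the CpFatB5 line of Brassica napus were compared between 25 and 45 days after flowering (DAF). The comparison consists of 2 libraries, 1 at each age, out of 9 in the series, and all 91830 genes of the table were considered. The line is a homozygous T4 line in the cultivar Youngsan. It carries an acyl-ACP thioesterase gene from Cuphea paucipetala under the seed-specific Napin promoter. Plants were grown in a greenhouse, and whole pods with their seeds were harvested, so that pod wall, seed coat, endosperm and embryo contribute to each value. RNA of 3 preparations was pooled into 1 library per age. The table gives 2 raw count columns for each library, and these were averaged as repeat measurements of 1 pooled sample. The labels give the ages as days after fertilization. Untransformed Youngsan and the CpFatB4 line, which carries the other Cuphea thioesterase, were sampled at the same ages, again with 1 library each.

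In an oilseed embryo, carbon arrives as sucrose, is broken down to pyruvate, and enters the plastid fatty acid synthase through pyruvate dehydrogenase and acetyl-CoA carboxylase (ACCase). Acyl-ACP thioesterases release the finished chains, which are desaturated, elongated and assembled into triacylglycerol (TAG) in the endoplasmic reticulum and packed into oil bodies coated with oleosin, caleosin and steroleosin. In late maturation, filling ends, the seed dries, and late embryogenesis abundant (LEA) proteins accumulate.

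The 25 DAF library held 83475638 counts over its 2 columns, and the 45 DAF library held 38677752. The 20 most abundant genes took 6.83% of the counts at 25 DAF and 18.1% at 45 DAF. Counts were divided by size factors (1.267 and 0.515), which gives normalized counts. A gene was considered when its mean over both libraries was at least 1000 normalized counts, and it was called as having risen or fallen when its log2 fold change (45 over 25 DAF) was at least 1 in size. Values below a floor of 3 normalized counts were raised to it for fold changes. There is no biological replicate at either age, so no test was possible, and a called change is a difference between 2 libraries with no replicate check. Intervals given with a fold change are exact 95% intervals of the ratio of counts. They and the Wilson intervals of shares treat every count as a separate read and cover no error beyond counting. Each column at 25 DAF held more counts than the library had reads after trimming, so some reads were counted more than once. Each column at 45 DAF held fewer counts than such reads, so count totals do not measure sequencing depth. The intervals can therefore be too narrow even for counting error. In whole pods, fewer cells of a type and less RNA per cell cannot be told apart.

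Of the 5954 genes past the minimum, 1123 (18.9%) rose, 1953 (32.8%) fell and 2878 lay between. The median log2 fold change was -0.43. Rises reached further than falls: 416 genes rose and 138 fell by at least 5 on the log2 scale, and 295 rose and 20 fell by at least 8. Among the called genes, 171 that rose were under 10 normalized counts at 25 DAF, whereas 11 that fell were under 10 at 45 DAF. These numbers are not on an equal footing. Because the size factors differ, 10 normalized counts stand for fewer deposited counts at 45 DAF, and the value of 1 that every gene carries weighs more there. The balance of rises and falls depended on the scaling. With size factors taken only from abundant genes (a mean of 1000 or more over all libraries), the scaling moved log2 fold changes up by 0.59, and 1971 genes rose and 1201 fell. With the value of 1 that every gene carries subtracted first, the scaling moved them up by 0.33, and 1555 rose and 1486 fell. With total counts it moved them by -0.19, and 981 rose and 2295 fell. Genes with few counts at 1 age moved by other amounts. Changes near the threshold are therefore stated with the scaling that ends their call. The A and C subgenomes, as given in the gene identifiers, gave similar values: 501 of 2921 A genes rose and 979 fell (median -0.46), and 608 of 3013 C genes rose and 971 fell (median -0.41).

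**Figure D1:**
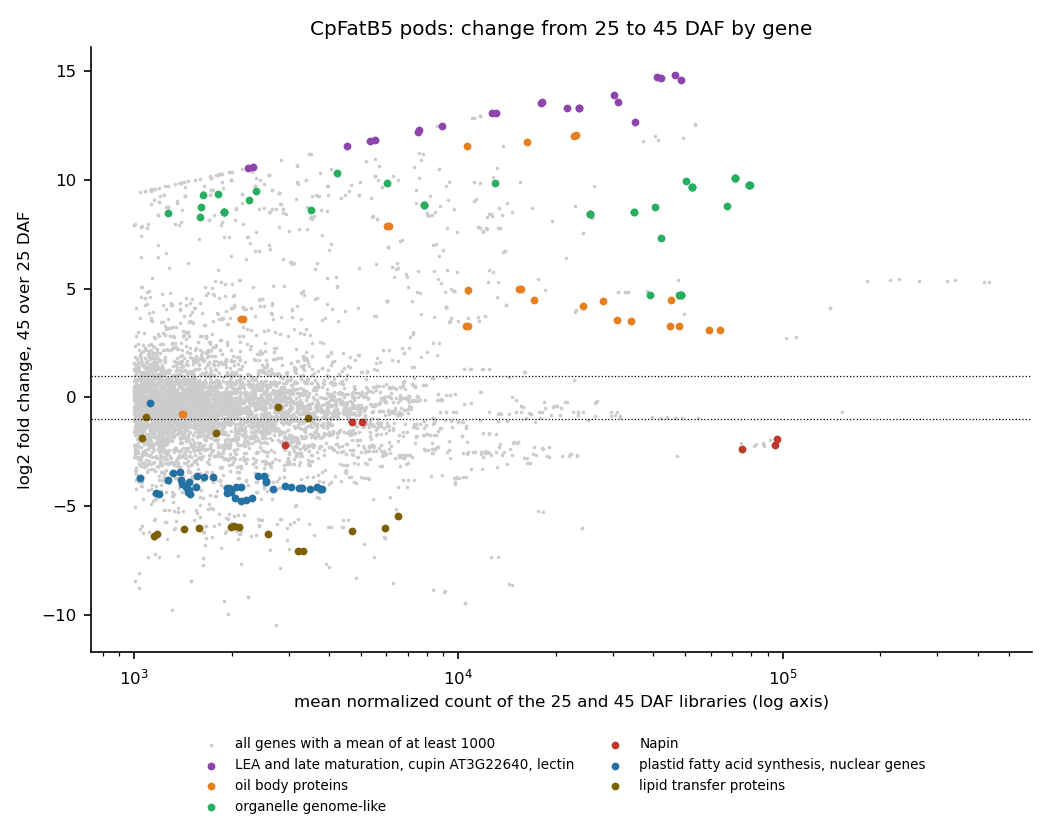
Log2 fold change from 25 to 45 DAF in CpFatB5 against the mean normalized count of both libraries (log axis), for the 5954 genes past the minimum, 1 point a gene. Dotted lines mark a log2 fold change of 1 in either direction. The LEA, cupin AT3G22640 and lectin genes lie above 10, the oil body genes mostly between 3 and 12, and the nuclear genes from pyruvate dehydrogenase to ketoacyl-ACP synthase II, drawn here without the desaturases, below -3 except for 1 ketoacyl-ACP reductase gene.

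The genes with the greatest rises encoded late seed maturation proteins. The 10 annotated genes with the largest rises were all copies of a vicilin-like cupin (AT3G22640), of LEA and late maturation proteins, or of a mannose-binding lectin (AT3G21380). The cupin gene BnaA01g24560D had 6 and 2 deposited counts in the 2 columns at 25 DAF and 48013 and 47807 at 45 DAF, a log2 fold change of 14.84 (interval 13.49 to 16.72). Its partner BnaCnng28630D went from 3.95 to 97361 normalized counts. Both cupin copies were thus near 0 at 25 DAF and high at 45 DAF, as they were in Youngsan (median 12.99) and, with a smaller step, in CpFatB4 (median 8.08).

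All 16 LEA and late maturation genes rose, against 18.9% of all genes past the minimum, with a median log2 fold change of at least 13.07, because 10 of the 16 were under 3 normalized counts at 25 DAF. The study picked these genes, and the cupins, cruciferins, lectin, laccase, dirigent-like, SAG12 and isocitrate lyase genes described here, for their change between stages in these same samples, so their direction is not independent evidence. The clock-linked, sucrose synthase and most organelle-like genes, 5 of the 8 Napin genes and the patatin-like genes were likewise picked on these samples, for differences between lines, stages or levels. BnaC04g47570D, a copy of the LEA gene AT2G41280, was at 9, 3.16 and 84123 normalized counts at 8, 25 and 45 DAF. BnaA05g34530D, a copy of AT2G40170 (the Arabidopsis EM6 protein, a LEA protein of the dry seed), had 2 and 4 deposited counts at 25 DAF and 36177 normalized counts at 45 DAF (interval of the log2 fold change 12.35 to 16.18). BnaA05g17150D, a copy of the seed maturation protein gene AT3G22490, was at 4.74 and 47187. The whole list summed to 58.4 normalized counts at 8 DAF, 42.2 at 25 DAF and 505940 at 45 DAF. The list took 1.35% of all counts at 45 DAF (Wilson 95% interval 1.34 to 1.35%), beside 1.18% in Youngsan and 0.275% in CpFatB4 of the same age. The 25 DAF pods therefore carried almost none of these transcripts in any of the 3 lines. All 4 lectin copies rose as well (median 13.10), BnaC05g11200D from 3.94 to 60515 normalized counts.

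Among annotated genes outside the lists, 5 rises stood out by the same rule. A glycine-rich protein gene, BnaA09g18220D, had 3 deposited counts in each column at 25 DAF and 22303 normalized counts at 45 DAF. BnaA10g02150D and BnaC05g02070D, copies of AT1G03790 (in Arabidopsis the zinc finger protein SOMNUS, which holds back light-dependent germination), were both at 1.58 normalized counts at 25 DAF and at 7014 and 6941 at 45 DAF. BnaC03g19110D, a protein phosphatase 2C family gene, was at 1.58 and 5699. The fifth, BnaCnng12720D, a cytochrome c oxidase subunit III gene, rose from 32.8 to 31061 and belongs with the organelle-like genes described below. Genes with no annotation rose as well: BnaC01g26830D went from 17.8 to 107061 normalized counts and BnaA01g21430D from 18.2 to 107343.

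Storage protein genes did not move as 1 group. Napins are the 2S albumins of the Brassica seed and cruciferins its 12S globulins. Of the 8 Napin genes, 6 passed the minimum, and all 6 fell, against 32.8% of all genes (median log2 fold change -2.05). BnaA01g17200D was at 103, 125713 and 24366 normalized counts at 8, 25 and 45 DAF, and BnaC01g43250D went from 151978 to 40101. The 3 copies annotated as seed storage albumin 3 (AT4G27160) had a median of -1.14, and 2 of the 6 Napin calls ended with size factors from abundant genes or with 1 subtracted. The 2 cruciferin 3 genes rose (BnaA01g08350D from 28120 to 191612, log2 fold change 2.77), while both cruciferin 2 genes had a log2 fold change of -0.22. All 5 copies of AT5G44120 (the Arabidopsis cruciferin A gene) rose, BnaA06g36310D from 15161 to 265574 normalized counts. Napin was thus at its highest at 25 DAF of the 3 ages in this line, and cruciferin 3 and the AT5G44120 copies at 45 DAF. The sign of the cruciferin 2 value depended on the scaling.

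The genes that supply and run plastid fatty acid synthesis fell together. Of 21 genes of the plastid pyruvate dehydrogenase complex, which makes acetyl-CoA for the pathway, 14 passed the minimum and all 14 fell (median -4.15, range -4.43 to -3.45). Of all genes past the minimum, 32.8% fell. The summed level of the 21 genes was 12685 normalized counts at 8 DAF, 56973 at 25 DAF and 3528 at 45 DAF. The complex was thus below its 8 DAF level by 45 DAF. All components moved by like amounts: the medians were -4.19 for E1 alpha, -3.69 for E1 beta, -4.19 and -4.07 for the 2 E2 orthologs and -4.42 and -3.45 for the 2 E3 orthologs. BnaC08g46110D (E1 alpha) went from 7177 to 393 normalized counts (interval -4.40 to -3.99).

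The nuclear subunits of heteromeric ACCase, the committed step, behaved alike. All 8 genes past the minimum, of 16, fell (median -4.0), against 32.8% of all genes. BnaC05g07580D, a biotin carboxylase gene, went from 4786 to 325 normalized counts, and BnaA03g17570D, a carboxyltransferase alpha gene, from 4115 to 149. The carboxyltransferase beta subunit, which is encoded in the plastid genome, went the other way: its 4 gene models carried identical counts in every library and so cannot be told apart, and each rose from 10.3 to 3773 normalized counts (log2 fold change 8.52, interval 7.75 to 9.43). That rise belongs to the organelle-like genes described below.

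Most later enzymes of the cycle fell by a similar factor. All 6 ketoacyl-ACP synthase I genes past the minimum fell (median -4.14), where 32.8% of all genes fell. BnaA06g36060D went from 7184 to 395 normalized counts. All 4 enoyl-ACP reductase genes past the minimum fell (BnaA03g38220D from 4448 to 182), as did all 4 ketoacyl-ACP synthase II genes (BnaA07g31890D from 3706 to 209). Of 6 ketoacyl-ACP reductase genes past the minimum, the 5 copies of AT1G24360 fell (median -3.79), and the single copy of AT3G55310 had a log2 fold change of -0.28. No malonyltransferase or acyl carrier protein gene reached a mean of 1000. At a minimum of 200, where 30.7% of all genes fell and 15.8% rose, all 5 malonyltransferase and all 3 acyl carrier protein genes fell. BnaA09g03610D, an acyl carrier protein gene, was at 22.9, 483 and 2.91 normalized counts at 8, 25 and 45 DAF (interval of the log2 fold change -10.01 to -5.10).

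Thioesterase and desaturase genes fell less evenly. The endogenous FatA genes, whose product releases mainly unsaturated chains, were low: 4 of 7 reached a mean of 200, and all 4 fell (median -3.55), BnaA04g07120D from 740 to 60.1 normalized counts. At a minimum of 200, 30.7% of all genes fell, and at 1000, 32.8%. The 7 endogenous FatB genes, for the enzyme that releases saturated chains, had a median of -1.12. Of these, 5 were called as fallen and none was with size factors from abundant genes (median -0.53) or with 1 subtracted (median -0.80). With total counts all 7 were called as fallen (median -1.31). BnaA06g04900D, the most abundant, was at 1667, 1038 and 567 normalized counts over the 3 ages. All 7 stearoyl-ACP desaturase genes past the minimum fell, the 4 copies of AT2G43710 by a median of -3.0 and the 3 copies of AT3G02630 by a median of -1.75. In the endoplasmic reticulum, the 3 linoleate desaturase (FAD3) genes past the minimum fell (median -4.21, BnaA04g17150D from 2102 to 110), and the 2 oleate desaturase (FAD2) genes fell less (median -2.0, BnaC05g40970D from 11546 to 3306). Both FAE1 genes past the minimum, for the ketoacyl-CoA synthase that elongates chains to erucic acid, fell by a median of -3.04. BnaA08g11130D was at 4.04, 8757 and 1053 normalized counts over the 3 ages.

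The same lists had smaller falls in the other lines over this interval, with no library shared. For pyruvate dehydrogenase the medians were -3.25 in Youngsan and -1.38 in CpFatB4, for nuclear ACCase -2.80 and -1.32, and for ketoacyl-ACP synthases -3.07 and -1.28. Each of the 14 pyruvate dehydrogenase genes fell further in CpFatB5 than in either other line. Lower values in CpFatB5 were common, however. Of 197 lipid metabolism genes past the minimum, 167 had a lower log2 fold change than in Youngsan and 149 than in CpFatB4. Over all genes past the minimum of each line, the median was -0.43 in CpFatB5, 0.03 in Youngsan and -0.29 in CpFatB4. The CpFatB5 median depended on the scaling. For stearoyl-ACP desaturase the medians were -2.13 in Youngsan and 0.05 in CpFatB4, and for FAD2 and FAD3 -2.52 and 0.00. These differences have no replicate behind them and were not tested.

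**Figure D2:**
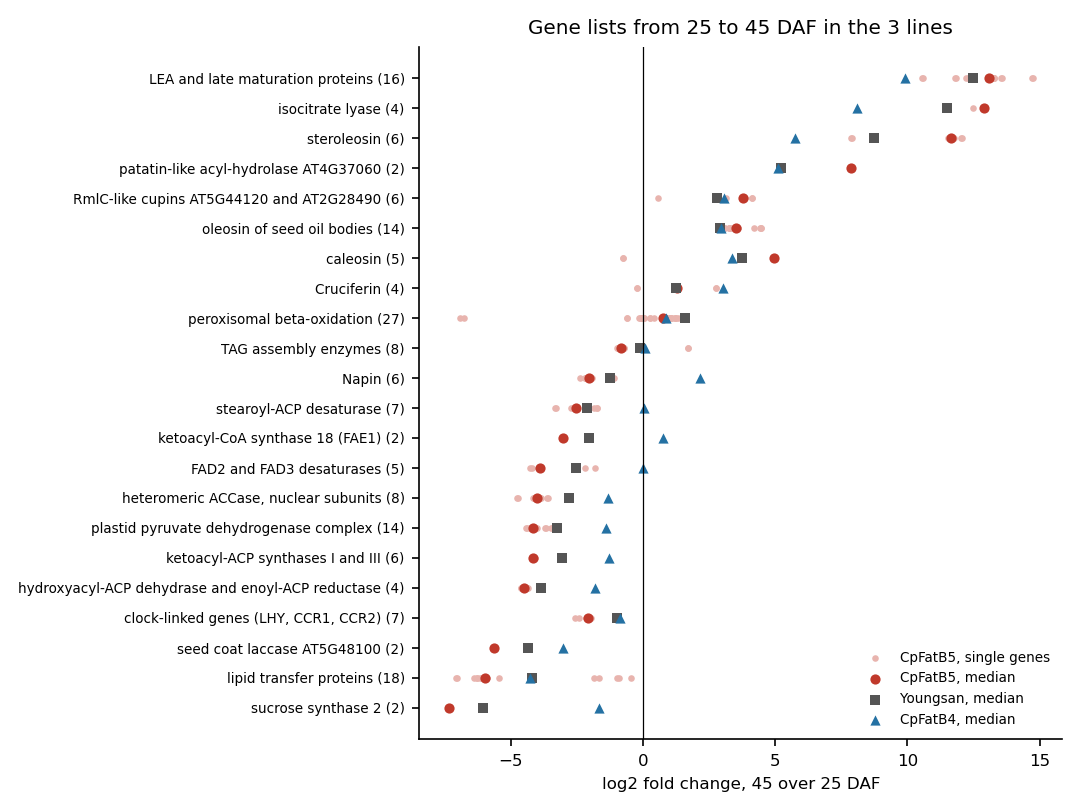
Log2 fold change from 25 to 45 DAF for 22 gene lists, with the number of genes past the minimum in brackets. Pale points are single genes in CpFatB5, and filled symbols are the list medians in CpFatB5, Youngsan and CpFatB4. The pyruvate dehydrogenase, nuclear ACCase and ketoacyl-ACP synthase I and III lists lie near -4 in CpFatB5, near -3 in Youngsan and between -1 and -2 in CpFatB4, and Napin lies below 0 in CpFatB5 and Youngsan and above 0 in CpFatB4.

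Transcripts of sucrose synthase 2 and of several regulators of seed filling fell. Sucrose synthase cleaves imported sucrose, and both sucrose synthase 2 genes fell by a median of -7.34, BnaC07g27090D from 26359 to 163 normalized counts. Both were at or under 24.3 at 8 DAF. Of the transcription factors, WRINKLED1 (WRI1), which switches on glycolytic and fatty acid synthesis genes, fell in all 3 copies with a mean of at least 200: BnaA07g16350D from 1632 to 65.0, BnaA09g34250D from 1619 to 86.4 and BnaC08g25150D from 1648 to 87.3. LEAFY COTYLEDON1, an activator of embryo maturation, fell in both such copies, BnaA07g10770D from 751 to 5.82 and BnaC07g14150D from 756 to 5.82. The 2 bZIP67 genes, BnaC03g54810D and BnaCnng04010D, fell from 405 and 401 to 96.1 each. FUSCA3 was not called: BnaA02g28280D went from 262 to 141 and BnaC02g36350D from 258 to 144. ABSCISIC ACID INSENSITIVE3, which maintains late maturation, stood the other way, at 1026 and 1657 in BnaA03g37510D and at 903 and 1432 in BnaC03g44820D. Its log2 fold changes of 0.69 and 0.67 were under the call in the main scaling and passed it with size factors from abundant genes (median 1.27). Of the 11 genes of the regulator list with a mean of at least 200, 7 fell and none rose in the main scaling, where 30.7% of all genes fell. ABSCISIC ACID INSENSITIVE4 did not reach that minimum and summed to 156 at 25 DAF and 270 at 45 DAF. In the list of repressors of the embryonic programme, the 2 PICKLE genes past the minimum had log2 fold changes of 0.25 and 0.26. Of the 12 with a mean of at least 200, 4 fell and none rose (median -0.66), and with size factors from abundant genes 2 fell (median -0.07).

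Oil body protein genes rose. All 14 seed oleosin genes past the minimum rose (median 3.51, range 3.08 to 4.47), beside medians of 2.91 in Youngsan and 2.96 in CpFatB4. Of all genes past the minimum in CpFatB5, 18.9% rose. BnaA08g14540D was at 14.4, 13496 and 114536 normalized counts over the 3 ages, and BnaA09g02110D at 22.5, 3921 and 86891. By ortholog, AT4G25140 summed to 53799 at 25 DAF and 508546 at 45 DAF, and AT3G27660 to 8924 and 186170. The 27 oleosin genes together took 0.212% of all counts at 25 DAF (0.211 to 0.214%) and 2.08% at 45 DAF (2.08 to 2.09%). Oleosin thus rose from a level already high at 25 DAF, unlike the LEA genes.

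Steroleosin, a sterol-binding oil body dehydrogenase, came on late. All 6 genes past the minimum rose (median 11.65), against 18.9% of all genes. BnaCnng57830D went from 10.7 to 46029 normalized counts (interval 11.28 to 12.90). The copies of AT5G50600 had a median of 11.88 and those of AT4G10020 a median of 7.88. In Youngsan the list median was 8.75 and in CpFatB4 5.74. The summed level of the list at 45 DAF was 169879 in CpFatB5, 177663 in Youngsan and 96746 in CpFatB4, and at 25 DAF it was 304, 893 and 2244, so the lines stood further apart in ratio at 25 DAF than at 45 DAF. Caleosin split by ortholog: the 3 copies of AT4G26740 rose (BnaA01g15860D from 955 to 30185), and the 2 of AT2G33380, the stress-induced caleosin RD20 of Arabidopsis, fell short of the call (BnaC04g43780D from 1771 to 1049). Oleosins of the pollen surface were low, and no copy reached a mean of 200 normalized counts. Their sum over all copies was 24.7 at 8 DAF, 303 at 25 DAF and 120 at 45 DAF.

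**Figure D3:**
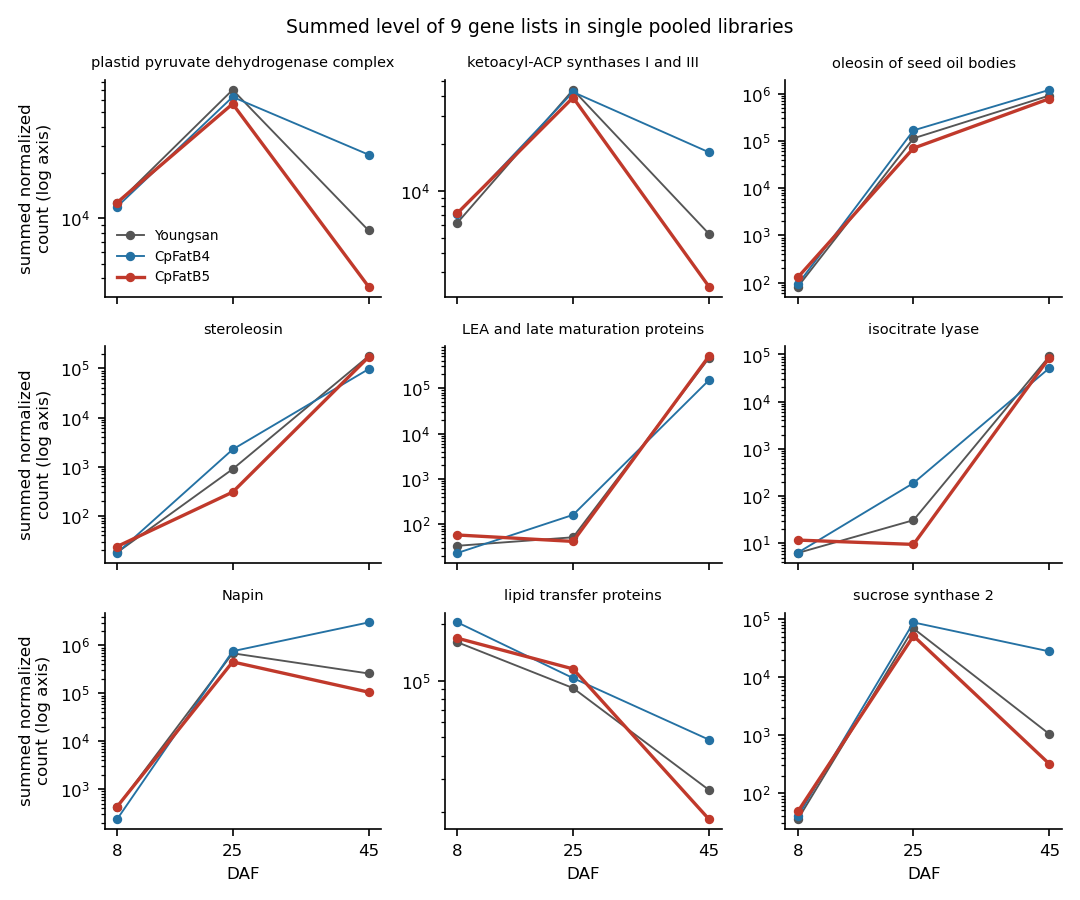
Summed normalized count (log axis) of 9 gene lists at 8, 25 and 45 DAF in the 3 lines, 1 pooled library a point and all list members included. Pyruvate dehydrogenase, ketoacyl-ACP synthase and sucrose synthase 2 peak at 25 DAF and are lowest in CpFatB5 at 45 DAF, while LEA and isocitrate lyase transcripts appear at 45 DAF.

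TAG assembly changed little beside synthesis of its substrates. Of 69 genes, 8 passed the minimum: 2 rose and none fell (median -0.82, against -0.43 over all genes), where 18.9% of all genes rose and 32.8% fell. Both that rose encode DGAT1, the diacylglycerol acyltransferase that completes TAG (BnaA07g36000D from 766 to 2516 and BnaCnng52810D from 736 to 2418 normalized counts). With total count scaling 4 of the 8 were called as fallen. BnaC08g46660D, a copy of the soluble acyltransferase gene AT1G48300, went from 2018 to 1025 (log2 fold change -0.98). The 4 genes of AT3G57650, a lysophosphatidate acyltransferase, had a median of -0.82.

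Of 231 genes of eukaryotic phospholipid synthesis, 25 passed the minimum and 15 fell, with none rising in the main scaling (median -1.78). Of all genes past the minimum, 32.8% fell and 18.9% rose. With size factors from abundant genes 4 rose and with 1 subtracted 3 rose. Of the 116 with a mean of at least 200, 16 rose and 28 fell (median -0.34). At that minimum 15.8% of all genes rose and 30.7% fell (median -0.36), so the 116 lay near the share of all genes. The list includes the 5 FAD2 and FAD3 genes given above. The deepest fall was in phosphoethanolamine N-methyltransferase AT1G73600, an enzyme of phosphocholine synthesis (BnaA07g22620D from 3291 to 95.1 normalized counts). The inositol phosphate synthases split, with the 4 genes of AT2G22240 at a median of 0.49 and the 2 of AT4G39800 at -2.63. The largest positive value was that of phosphatidylserine decarboxylase BnaA01g15140D, at 0.80. Of the 4 sphingolipid genes past the minimum none was called (median 0.24). Among the 52 with a mean of at least 200, 14 rose and 10 fell (median 0.24), where 15.8% of all genes rose and 30.7% fell. With size factors from abundant genes 22 rose and 8 fell. In the mitochondrial fatty acid and lipoic acid list, the only 2 genes past the minimum, both for dihydrolipoamide dehydrogenase, fell by a median of -1.96.

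Lipid breakdown genes did not move as a block. Peroxisomal beta-oxidation shortens fatty acids by repeated oxidation, hydration and thiolysis, and feeds the glyoxylate cycle of the germinating seed. Of 64 genes, 27 passed the minimum, 11 rose and 2 fell (median 0.75, beside 1.59 in Youngsan and 0.88 in CpFatB4). Of all genes past the minimum in CpFatB5, 18.9% rose and 32.8% fell. All 6 genes of the thiolase AT2G33150 (KAT2, the main thiolase of Arabidopsis seedlings) rose, BnaA05g10480D from 3312 to 7950 normalized counts. All 5 of the multifunctional protein AT3G06860 (MFP2) rose, BnaC03g34950D from 1756 to 4927. In contrast, none of the 4 genes of its paralog AT4G29010 (AIM1) was called (median -0.04), and neither were the acyl-CoA oxidases AT3G51840 (median 0.13) and AT4G16760 (median -0.62). The 3 genes of the peroxisomal ABC acyl transporter AT4G39850 had a median of 0.77. The second thiolase, AT5G48880 (KAT5), fell in both copies, BnaA02g30470D from 3673 to 30.1 (interval -7.69 to -6.19). Its summed level was 3420 at 8 DAF, 6967 at 25 DAF and 60.2 at 45 DAF. KAT2 and KAT5 encode enzymes of the same reaction and moved in opposite directions in all 3 lines (KAT5 sums -5.13 in Youngsan and -3.49 in CpFatB4, KAT2 sums 1.70 and 1.19). Many of the KAT2 and MFP2 rises were close to the threshold: with total count scaling 6 of the 27 genes were called as risen, and with size factors from abundant genes 17 of 29.

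Isocitrate lyase, the entry enzyme of the glyoxylate cycle, rose from the floor. All 4 genes were under 3 normalized counts at 25 DAF and between 17152 and 23322 at 45 DAF, a median of at least 12.88. BnaA03g36420D had 4 and 3 deposited counts at 25 DAF and 12067 and 11976 at 45 DAF. The median was 11.50 in Youngsan and 8.08 in CpFatB4. The patatin-like acyl-hydrolase AT4G37060 rose in both copies, BnaA01g00820D from 9.08 to 2103. Only 2 of the TAG and monoacylglycerol lipase genes passed the minimum, both for the monoacylglycerol lipase AT5G16120, and neither was called. Of the 20 with a mean of at least 200, 5 rose and 8 fell, where 15.8% of all genes rose and 30.7% fell.

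**Figure D4:**
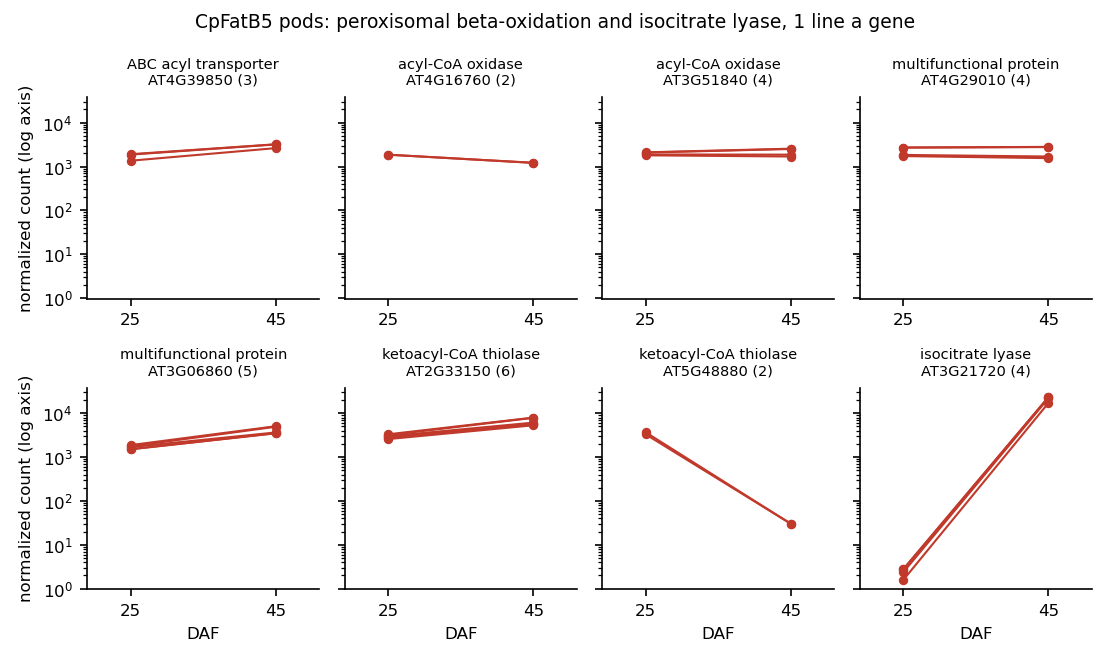
Normalized counts (log axis) at 25 and 45 DAF in CpFatB5 for the genes of 7 beta-oxidation orthologs and isocitrate lyase, 1 line a gene, with the number of genes in brackets. The thiolase AT2G33150 and the multifunctional protein AT3G06860 go up, the thiolase AT5G48880 goes down from over 3000 to about 30.1, and isocitrate lyase starts under 3 and ends at 17152 or above.

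Transcripts of the pod surface and seed coat fell. Lipid transfer proteins carry lipids to the cell wall and cuticle. Of 212 genes measured, 18 passed the minimum, 15 fell and none rose in the main scaling (median -5.98), where 32.8% of all genes fell. BnaA04g22080D, a copy of LTP1, was at 10682, 12739 and 289 normalized counts over the 3 ages, and BnaC02g10060D, a copy of LTP4, at 11079, 6382 and 47.6. The 2 copies of LTP2 (AT2G38530) were not called (median -0.71). The LTP1 and LTP4 copies given here were thus already high at 8 DAF and low at 45 DAF. In the list of ketoacyl-CoA synthases, the 2 FIDDLEHEAD genes (AT2G26250, an epidermal elongase) fell by a median of -4.71, BnaA04g15380D from 2217 to 81.5. Among 22 wax and cuticle genes with a mean of at least 200, 17 fell and 3 rose, where 30.7% of all genes fell and 15.8% rose. BnaA09g15080D, a midchain alkane hydroxylase gene, was at 7560, 709 and 2.91 normalized counts over the 3 ages, and BnaC02g11200D, a CER3 wax synthesis gene, at 4608, 1344 and 418.

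Both genes of the seed coat laccase AT5G48100 (TRANSPARENT TESTA10, which oxidises flavonoids in the coat) fell, BnaC02g38340D from 8935 to 181 and BnaAnng08030D from 8670 to 174 normalized counts. Both genes of the dirigent-like protein AT4G23690 fell by a median of -9.17. BnaA03g38820D had 5703 and 5688 deposited counts at 25 DAF and 4 in each column at 45 DAF (interval -11.05 to -7.82). The regulators TRANSPARENT TESTA2 and 8 summed to 618 normalized counts at 25 DAF and 47.5 at 45 DAF. BnaA06g40240D, annotated as the cysteine protease SAG12, known from senescing leaves, went from 35571 to 931. The deepest falls among annotated genes in no list were in 3 genes of unknown function related to AT4G37900 (BnaA06g03920D from 16681 to 35.9), in BnaC04g30640D, a bifunctional inhibitor and lipid transfer family gene (9641 to 31), and in BnaA02g11140D, a glucose-methanol-choline oxidoreductase gene (7980 to 35.9). The 2 deepest falls of all were in unannotated genes, BnaA06g38230D (5464 to 3.88) and BnaC05g16990D (3885 to 3.88). Only 2 of the 10 largest falls were annotated, against all 10 of the 10 largest rises. The annotation used covers 353 of the 5954 genes past the minimum and includes genes the study picked for their change between stages.

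Green tissue genes of the nucleus mostly fell or were not called. Of 36 genes for thylakoid glycerolipids with a mean of at least 200, 16 fell and 2 rose (median -0.73), where 30.7% of all genes fell and 15.8% rose. The count depended on the scaling: 6 fell with size factors from abundant genes (median -0.13), 9 with 1 subtracted (median -0.40), and with total counts 16 fell and none rose. The 3 with a mean of at least 1000, all copies of the plastid desaturase FAD5, were not called. GOLDEN2-LIKE2, a regulator of chloroplast development, summed to 713 normalized counts at 25 DAF and 113 at 45 DAF. Of the 2 genes past the minimum for the chloroplast import receptor TOC159, BnaCnng19080D was at 1434 and 1750, and BnaCnng19090D at 2121 and 1018, a log2 fold change of -1.06 whose call ended with size factors from abundant genes or with 1 subtracted.

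Clock-linked RNA-binding protein genes fell in all 7 copies past the minimum (median -2.08, beside -0.97 in Youngsan and -0.88 in CpFatB4). Of all genes past the minimum in CpFatB5, 32.8% fell. BnaAnng35580D, a copy of CCR2, was at 1047, 23836 and 5816 normalized counts at 8, 25 and 45 DAF. The hour of harvest was not compared here.

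Genes resembling the plastid and mitochondrial genomes rose in CpFatB5. All 32 plastid genome-like genes rose (median 8.78), beside 18 of the same 32 in Youngsan (median 1.15) and all 32 in CpFatB4 (median 4.97), where 23.4% and 11.6% of all genes past the minimum rose. Their summed level was 20463 normalized counts at 25 DAF and 2638485 at 45 DAF, the lowest and the highest of the 9 libraries, and 239319 at 8 DAF. BnaC03g60960D, resembling psbC of photosystem II, was at 3257, 185 and 158872 over the 3 ages. BnaA05g00900D, resembling psaA of photosystem I, was at 3017, 133 and 142395, and its counts were identical to those of 3 other gene models. Of the 32 genes, 23 shared all their counts with another gene and cannot be told apart. The 5 genes resembling rps12 rose least (median 4.70) and the 9 resembling rbcL, the large subunit of Rubisco, by 8.52. All 11 mitochondrial genome-like genes past the minimum rose (median 9.31). Of the same 11, 7 rose in Youngsan (median 1.27) and all 11 in CpFatB4 (median 4.67). Of all genes past the minimum in CpFatB5, 18.9% rose. BnaC04g21290D, a cytochrome oxidase gene, went from 6.71 to 8478 normalized counts.

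Nuclear photosystem genes did not follow. In the photosystem list, 8 of 22 genes rose (8.75 to 10.10), of which 5 are in the plastid genome-like list, and the other 14 fell (-3.11 to -1.54). The 14 that fell summed to 68636, 50549 and 11257 normalized counts over the 3 ages. The 8 most abundant genes of the 45 DAF library carried no annotation and rose by 5.30 to 5.42, from 0.349% of counts at 25 DAF (0.348 to 0.351%) to 12.5% at 45 DAF (12.5 to 12.5%). In Youngsan their summed level was 200588 and 178836 at 25 and 45 DAF, and in CpFatB4 it rose from 101359 to 757334. Together with the organelle-like genes, 57 in all, they took 0.4135% (0.4116 to 0.4155%) of the counts at 25 DAF and 19.96% (19.95 to 19.98%) at 45 DAF, and at most 3.204% (3.198 to 3.21%) in any of the other 7 libraries. With these 57 genes taken out, a check chosen after seeing the data, 1072 genes rose and 1948 fell and the median was -0.44. The part of RNA quality or of library preparation in their rise was not tested.

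**Figure D5:**
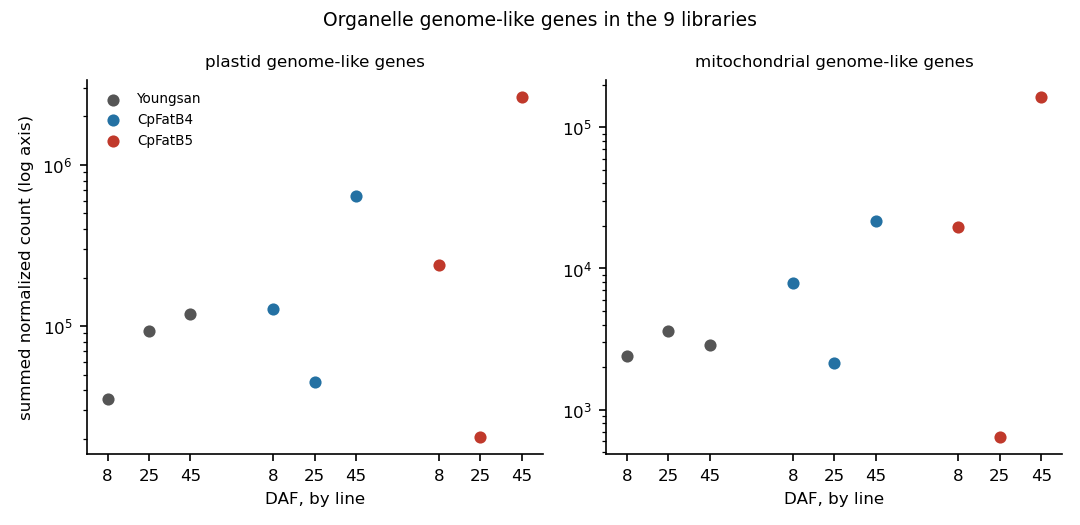
Summed normalized count (log axis) of the plastid and mitochondrial genome-like genes in each of the 9 pooled libraries, by line and DAF, 1 point a library. In CpFatB5 the plastid sum is 239319 at 8 DAF, 20463 at 25 DAF and 2638485 at 45 DAF, the latter values being the lowest and the highest of all 9.

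The overall pattern of change resembled that of Youngsan over the same interval. Over the 5653 genes past the minimum in both lines, Spearman's rho of the log2 fold changes was 0.92, and over 5319 genes it was 0.83 with CpFatB4. These are descriptions across genes, which are not independent and share each library's scaling. Of the 910 rises in CpFatB5 among the genes shared with Youngsan, 91.6% were also rises there, and these made up 67.3% of Youngsan's 1240. Of the 1912 falls, 64.7% were falls in Youngsan and made up 96.7% of its 1279. With CpFatB4, 76.1% of the rises and 41.6% of the falls of CpFatB5 were shared, which were 83.6% of the rises and 96.9% of the falls of CpFatB4. Among the 5319 genes shared with CpFatB4, 634 rose and 826 fell in CpFatB4. Over all genes past the minimum of their own line, a larger set, 23.4% rose and 21.1% fell in Youngsan. In CpFatB4 11.6% rose and 15.5% fell. Opposite calls were few: 27 genes rose in CpFatB5 and fell in Youngsan, and none did the reverse, and 21 fell in CpFatB5 and rose in CpFatB4. Among genes that fell in CpFatB5, the median was -1.96 there, -1.38 in Youngsan and -0.86 in CpFatB4 over the respective shared genes. These genes were picked by their value in CpFatB5. A deeper median there follows in part from that choice and is no evidence of deeper falls.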

How the data were processed

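Pod RNA was sequenced as paired-end reads (TruSeq v2, HiSeq2000). The authors trimmed reads with SolexaQA and aligned them with Bowtie2 2.1.0 to Genoscope coding sequences with at most 2 mismatches. The counting tool is not given in the sources used here. The deposited table holds raw read counts (18 columns, 2 a library, lowest value 1) and, for 13 of these columns, DESeq-normalized counts rounded by the authors, a score that was not used for CpFatB5 at 25 and 45 DAF, which have none. Size factors (median of ratios over all 18 raw columns) were recomputed and matched the deposited normalized columns within 0.500. The 2 columns of a library were averaged. Calls needed a log2 fold change of 1 and a mean of 1000 normalized counts, with values under 3 set to 3. Near-identical A and C copies can share reads, and identical counts cannot be separated. The fold change calculation was checked on simulated counts with known changes. Python 3.11 was used.

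Gene lists come from the annotation in the study's supplementary tables. Members and lists were chosen with earlier results of these data known. Named genes were, per list, the most abundant member and those with the largest rise and fall, the 10 largest annotated rises and falls, the 5 largest in no list, 2 unannotated genes a direction, and regulator copies with a mean of at least 200. Alternatives were other scalings, single columns, minimums and floors, 1 subtracted, and identical genes counted once.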

Additional observations from a re-analysis of the deposited data

Results flagged for a closer look

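The Napin list moved in opposite directions in the lines that carry a Cuphea thioesterase. Over the 6 Napin genes past the minimum, the median log2 fold change from 25 to 45 DAF was -2.05 in CpFatB5 and 2.16 in CpFatB4, and every gene fell in the first and rose in the second. In Youngsan the median was -1.23. With size factors from abundant genes or with 1 subtracted, 4 of the 6 were called as fallen in CpFatB5. The study had already described this Napin contrast from these same samples, so it is not independent evidence. With 1 library per age in each line, the difference was not tested.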

How the results depend on the processing

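The numbers of genes that rose and genes that fell depended on the scaling and on the minimum. With size factors from abundant genes, 1971 genes rose and 1201 fell, and the median log2 fold change of all genes past the minimum was 0.29. That median was -0.65 with total count scaling, -0.02 with 1 subtracted and -0.29 with identical genes counted once. With a minimum of 200, 3995 rose and 7761 fell, with 100, 5567 and 11199, and with none, 14446 and 22971 (median 0.00). With 1000 required of the higher library, 1753 rose and 3061 fell (median -0.54), and of the mean of the 7 other libraries 704 rose (median -0.67). The caleosin median turned negative with the minimum at 200 (-0.61), on the higher library (-0.62) or on the 7 other libraries (-0.63). At 200, 6 of the 11 caleosin genes are copies of AT2G33380. Of 118 named genes, 113 stayed on the same side of the call with size factors from abundant genes, and 114 with total counts and with 1 subtracted. No paired analysis was possible because each group is 1 library, and with none to leave out, replicate spread limits every value.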
